A study of Homo sapiens with 4 samples.

Results

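The 46 genes described here encode the machinery of DNA replication together with targets and members of the E2F family of transcription factors. They were picked by name, with earlier results of these data known. All 46 names were found in the tables of both bladder cancer cell lines studied. These list 30148 genes for UMUC3 and 17752 for SW780, of which 15415 are in both. UMUC3 and SW780 are established human lines. In each line a library labelled shSCD1, from cells with a lentiviral knockdown of SCD1, was set beside a library labelled shNT, whose genotype the labels give as WT. SCD1, listed as SCD, is the stearoyl-CoA desaturase that turns saturated into monounsaturated fatty acids. UMUC3 was grown in MEM and SW780 in DMEM, both with fetal bovine serum, so line and medium cannot be told apart. Each of the 4 groups is 1 library, and the labels give neither the number of cultures nor the number of hairpins behind it. No difference between shSCD1 and shNT therefore has a replicate check, and no test was made within a line.

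Totals ran from 22818368 reads (UMUC3 shNT) to 34087871 reads (SW780 shNT), with 32540576 in UMUC3 shSCD1 and 25549737 in SW780 shSCD1. The libraries are named only first and second in the tables. The second was read as shSCD1 from the tables' names and their second-over-first ratios, and every direction below turns round if the order is the other one. SCD stood at 264 counts per 1000000 reads (CPM) in UMUC3 shNT and 59.6 CPM in UMUC3 shSCD1, and at 592 and 92.1 CPM in SW780. Mitochondrial genes took 4.23% of the reads in UMUC3 shNT and 6.02% in its shSCD1 partner, and 4.33% and 4.51% in the SW780 pair. These shares cover 37 mitochondrial genes listed for UMUC3 but 13 listed for SW780, so they are not comparable between the lines. All 16 urothelial and epithelial markers are listed for SW780, and 13 reached 1 CPM there. For UMUC3, 13 are listed and 6 reached 1 CPM, while KRT19 and UPK1B had no read. The listed markers summed to 536 CPM in UMUC3 shNT and 264 CPM in its shSCD1 partner, and to 12606 and 10384 CPM in the SW780 pair. The part of this in the results below was not tested. Of 6 blood cell markers, 1 is listed for UMUC3 and 5 for SW780, and none of those listed reached 1 CPM. Summed fibroblast and endothelial markers stood at 3.02 and 1.14 CPM in the UMUC3 pair (shNT, then shSCD1). The SW780 pair had 8.42 and 12.3 CPM of these.

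Replication starts in the G1 phase, when the origin recognition complex, CDC6 and CDT1 load the ring-shaped MCM2 to MCM7 helicase onto DNA. At the start of S phase, CDC45 and the GINS complex join that helicase, polymerase alpha and primase lay down primers, and polymerases delta and epsilon, held by the PCNA clamp, copy the strands. Many of these genes are switched on late in G1 by activating E2F factors once the retinoblastoma protein is phosphorylated, while genes of mitosis peak later and largely through other promoter elements.

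The 46 genes were on the whole higher in the shSCD1 library, by more in UMUC3 than in SW780. In UMUC3, 43 of the 46 had a ratio above 1, with a median log2 ratio of 0.50 and a range from −0.13 (TK1) to 1.31 (CLSPN). Among all 14063 genes tested in that line, meaning those that reached 1 CPM in shNT or in shSCD1, 54.3% lay above 0 and the median was 0.04. Here and below, log2 ratios are shSCD1 over shNT after adding 1 to each CPM, while folds are plain ratios of CPM with an exact 95% Clopper-Pearson interval that covers counting error only. In SW780, 40 of the 46 lay above 0, with a median of 0.14 and a range from −0.19 (POLE2) to 0.61 (GINS3). Over the 12880 genes tested there, 48.5% lay above 0 and the median was −0.01. Because the set was chosen with earlier results of these data known, its contrast with all genes is not an independent check. In bulk RNA, fewer cells in S phase in one library and less of these RNAs per cell cannot be told apart.

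At 1.5-fold, 19 of the 46 were higher in UMUC3 shSCD1, where 10.1% of all tested genes were. None was 1.5-fold lower, beside 6.86% of tested genes. CLSPN and E2F2 were at least 2-fold higher, a size that 2.47% of tested genes reached. In the authors' deposited table the GFOLD value, a log2 change shrunk towards 0 by counting error, passed 1.5-fold for 6 of the 46 in UMUC3, beside 3.78% of tested genes, and for none in SW780, beside 3.19%. In SW780, GINS3 alone of the 46 was 1.5-fold higher, beside 5.05% of the 12880 tested genes, and none was 1.5-fold lower, beside 3.70%. None was 2-fold higher in SW780, beside 1.48%. GINS3 was thus the 1 gene of the set that reached 1.5-fold in both lines, and 0.708% of the 11152 genes tested in both did so. The share of the 46 past 1.5-fold in SW780 was below that of all genes there, so what the set showed in SW780 was a small shift of many members and not large ratios.

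Summed over the set, the genes took 0.342% of the reads in UMUC3 shNT and 0.453% in UMUC3 shSCD1, a fold of 1.32 (1.31 to 1.34). In SW780 they took 0.482% and 0.534%, a fold of 1.11 (1.10 to 1.12). Counting intervals lay wholly above 1 for 42 of the 46 in UMUC3, beside 35.9% of tested genes, and for 33 in SW780, beside 28.0%. They lay wholly below 1 for 3 in UMUC3, beside 29.6%, and for 2 in SW780, beside 29.8%, and held 1 for 1 and 11. The reads behind these ratios were many, from 277 (E2F2) to 7384 (MCM7) per gene in UMUC3 shNT and from 364 (E2F8) upward in SW780 shSCD1.

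**Figure D1:**
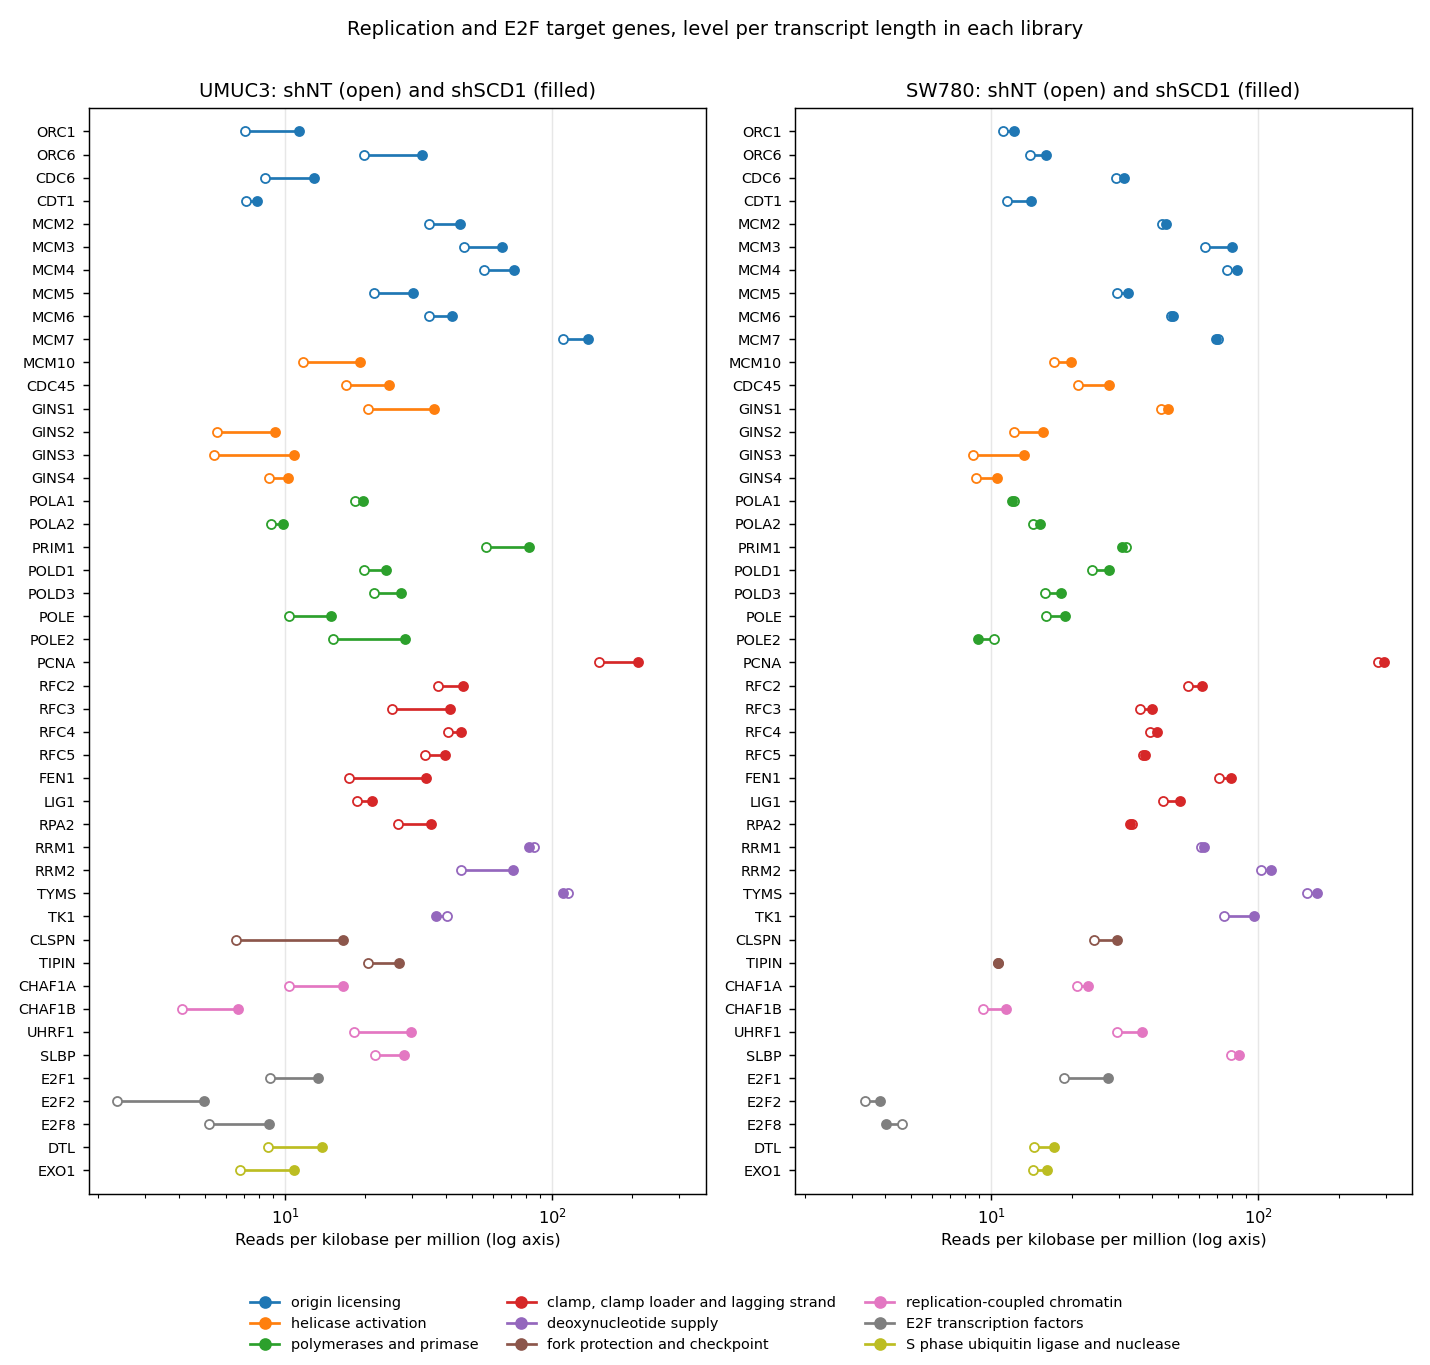
Level of each of the 46 genes in reads per kilobase of transcript and 1000000 reads (log axis), UMUC3 on the left and SW780 on the right, open circles shNT and filled circles shSCD1, coloured by role, 1 library per circle. In UMUC3 all but RRM1, TYMS and TK1 have the filled circle on the right, while in SW780 most pairs nearly touch, with PCNA highest and E2F2 lowest in both.

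Stretches of 6 promoters are printed to show the elements by which these genes are usually told from mitotic genes. All are from RefSeq's promoter table on GRCh38.p14, cover the 150 bases before the transcription start and are written 5′ to 3′ along the gene. Capitals mark an E2F match, except in CDC20, where they mark a CHR match. E2F2, E2F1, POLE and PCNA had the highest UMUC3 ratios among genes with an E2F match in this stretch and at most 30 of its bases in annotated exons. RRM1 is shown as a gene of the set that was not higher in UMUC3, and CDC20 as a gene of mitosis outside the set. CDC20 was picked for the lowest UMUC3 ratio among mitotic genes with a CHR match in this stretch, under the same exon limit.
E2F2, chr1:23531234-23531383, minus strand: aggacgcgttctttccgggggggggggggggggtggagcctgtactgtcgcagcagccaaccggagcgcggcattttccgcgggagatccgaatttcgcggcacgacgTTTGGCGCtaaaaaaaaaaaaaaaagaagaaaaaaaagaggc
E2F1, chr20:33686386-33686535, minus strand: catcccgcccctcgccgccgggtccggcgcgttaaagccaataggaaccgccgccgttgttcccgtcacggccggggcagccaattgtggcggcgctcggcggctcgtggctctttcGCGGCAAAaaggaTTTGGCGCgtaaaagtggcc
POLE, chr12:132687343-132687492, minus strand: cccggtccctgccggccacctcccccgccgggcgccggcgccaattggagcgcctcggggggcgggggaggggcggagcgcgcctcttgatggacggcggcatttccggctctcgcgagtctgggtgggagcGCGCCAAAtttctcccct
PCNA, chr20:5126623-5126772, minus strand: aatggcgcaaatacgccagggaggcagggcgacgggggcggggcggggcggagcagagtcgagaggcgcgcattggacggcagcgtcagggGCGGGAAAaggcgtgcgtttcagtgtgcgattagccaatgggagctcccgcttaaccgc
RRM1, chr11:4094535-4094684, plus strand: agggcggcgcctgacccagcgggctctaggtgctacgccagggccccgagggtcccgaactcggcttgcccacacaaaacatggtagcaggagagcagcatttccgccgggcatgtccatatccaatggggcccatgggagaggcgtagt
CDC20, chr1:43358831-43358980, plus strand: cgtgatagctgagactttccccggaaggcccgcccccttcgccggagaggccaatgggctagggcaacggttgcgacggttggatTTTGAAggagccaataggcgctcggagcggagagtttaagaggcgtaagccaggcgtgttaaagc

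Over windows from 250 bases before to 50 bases after the start, 40 of the 46 genes had an entry in that table. The E2F letters searched were TTTCCCGC, TTTCGCGC, TTTGCCGC and TTTGGCGC, on both strands. They were found in 23 of the 40 windows, 57.5% (exact interval 40.9 to 73.0%), against 5.27% of the 11339 tested genes with a window and 3.33% of all 27305 windows. In the 37-gene mitosis list, 3 of 31 windows (9.68%) held one. The letters of the CHR, the cell cycle genes homology region of many mitotic promoters (TTTGAA on both strands), ran the other way: 1 of the 40 windows (RRM1, 2.5%), 23 of the 31 mitotic windows (74.2%) and 9.80% of tested genes. The CCAAT letters, known as the element that NF-Y binds and also searched on both strands, were in 23 of the 40 windows (57.5%), 24 of the 31 mitotic ones (77.4%) and 36.9% of tested genes. A match is a run of letters and not a site shown to be bound, and none of the E2F words holds the CCAAT or CHR letters on either strand. The set was picked to hold E2F targets and the other list to hold mitotic genes. Their motif shares are therefore no independent check of either list.

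**Figure D2:**
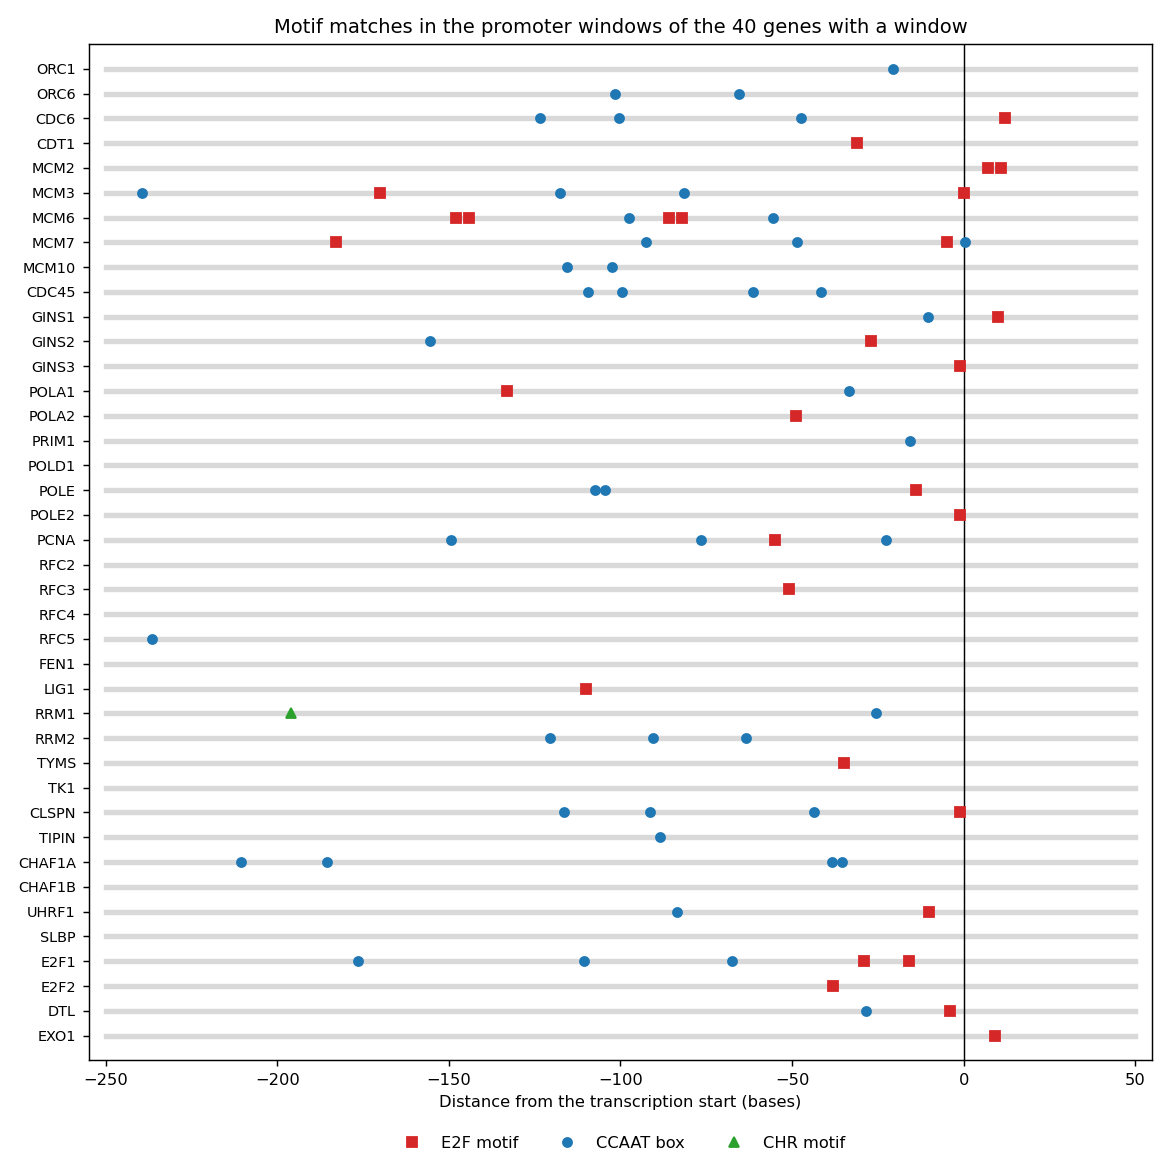
Position of each E2F, CCAAT and CHR match in the windows of the 40 genes, in bases from the transcription start (vertical line), 1 grey bar per gene. Of the 40 windows, 23 hold an E2F match, mostly close to the start, and 1 holds a CHR match.

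Having an E2F match did not go with a clearly different ratio inside the set. In UMUC3 the median log2 ratio was 0.57 over the 23 genes with a match and 0.52 over the 17 without. The SW780 medians were 0.17 and 0.14. FEN1, at 0.94 in UMUC3, had no match in its window, whereas TYMS, at −0.06, had 1.

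By role, origin licensing comes first in the cycle, and gene positions given from here on are GENCODE 29 on GRCh38. All 10 licensing genes were above 0 in UMUC3 (0.13 to 0.70) and 9 of 10 in SW780. ORC6, the smallest subunit of the origin recognition complex, had 736 reads (32.3 CPM) in UMUC3 shNT and 1731 (53.2 CPM) in shSCD1, a fold of 1.65 (1.51 to 1.80). In SW780 it had 775 and 666 reads, 22.7 and 26.1 CPM. ORC1, which carries the complex's ATPase and is degraded after origins fire, stood at 22.4 and 35.6 CPM in UMUC3, a fold of 1.59 (1.43 to 1.77), and at 34.9 and 38.4 CPM in SW780. For CDC6, the loader that E2F induces at the end of G1, the UMUC3 values were 40.4 and 61.6 CPM, a fold of 1.52 (1.41 to 1.65). SW780 held more CDC6 reads in both libraries, 141 CPM in shNT and 151 CPM in shSCD1. These 3 loading factors were the licensing genes past 1.5-fold in UMUC3, and none of them reached it in SW780. CDT1, their partner, was nearly level in UMUC3 at 23.1 and 25.4 CPM, with a counting interval that held 1 (0.985 to 1.23). In SW780 it stood at 37.2 and 45.5 CPM, a fold of 1.22 (1.13 to 1.33), so its ratio was the larger there.

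The 6 subunits of the MCM ring lay close together in UMUC3, with log2 ratios between 0.29 (MCM6) and 0.48 (MCM3), none past 1.5-fold. MCM3 stood at 150 and 209 CPM in UMUC3, a fold of 1.40 (1.34 to 1.45), and at 203 and 257 CPM in SW780, a fold of 1.27 (1.22 to 1.31). It had the largest SW780 ratio of the ring, where the other 5 lay between −0.03 and 0.13. MCM7 was the 1 licensing gene below 0 in SW780, with 209 and 205 CPM, a fold of 0.980 whose interval (0.945 to 1.02) held 1. In UMUC3 the same gene stood at 324 and 402 CPM. The subunits form a ring with 1 copy of each, yet their RNA levels per kilobase differed by 5.06-fold in UMUC3 shNT, from MCM5 (21.6) to MCM7 (109). In SW780 shNT the spread was 2.57-fold, from MCM5 (29.6) to MCM4 (76.2). Both spreads use the length of the principal transcript, which for MCM5 is 3534 bases beside 7338 exonic bases in all. Another choice of length would change them.

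The 6 genes that turn the loaded ring into a moving helicase were all above 0 in both lines, and 4 of 6 passed 1.5-fold in UMUC3. GINS3 (ENSG00000181938, chromosome 16, 58295080 to 58406144, plus strand), a subunit of the 4-part GINS complex, had 281 reads (12.3 CPM) in UMUC3 shNT and 796 (24.5 CPM) in shSCD1, a fold of 1.99 (1.73 to 2.28). In SW780 it had 660 reads (19.4 CPM) and 768 (30.1 CPM), a fold of 1.55 (1.40 to 1.73). No other gene of the set was past 1.5-fold in both lines. GINS1 stood at 66.7 and 117 CPM in UMUC3, a fold of 1.75 (1.65 to 1.86), but at 140 and 149 CPM in SW780. For GINS2 the pairs were 14.9 and 24.4 CPM in UMUC3 and 32.5 and 41.8 CPM in SW780, folds of 1.64 (1.44 to 1.86) and 1.29 (1.18 to 1.40). MCM10, which binds the helicase as it is activated, stood at 36.9 and 60.3 CPM in UMUC3, a fold of 1.64 (1.51 to 1.78), and at 54.1 and 62.7 CPM in SW780. The other 2 genes, CDC45 and GINS4, had log2 ratios of 0.52 and 0.24 in UMUC3 and of 0.37 and 0.26 in SW780. GINS1 was the most abundant GINS subunit per kilobase in each of the 4 libraries.

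All 7 polymerase and primase genes were above 0 in UMUC3 (0.09 to 0.88), with 1 past 1.5-fold, and 4 of 7 were above 0 in SW780. The gene past that size was POLE2, the second subunit of the leading-strand polymerase epsilon (ENSG00000100479, chromosome 14, 49643555 to 49688422, minus strand), with 611 reads (26.8 CPM) in UMUC3 shNT and 1631 (50.1 CPM) in shSCD1, a fold of 1.87 (1.70 to 2.06). In SW780 its ratio was below 1, 622 reads (18.2 CPM) and 405 (15.9 CPM), a fold of 0.869 (0.765 to 0.986). The authors' GFOLD value for POLE2 there was 0, so that value showed no change. POLE, the catalytic subunit of the same enzyme, was above 1 in both lines, at 81.4 and 116 CPM in UMUC3 and 126 and 149 CPM in SW780. By CPM alone, the subunits did not share the SW780 direction. PRIM1, the catalytic primase subunit, stood at 78.8 and 114 CPM in UMUC3, a fold of 1.45 (1.37 to 1.54), and at 44.6 and 42.9 CPM in SW780. POLA1, the catalytic subunit of polymerase alpha, was close to level in both, with 101 and 107 CPM in UMUC3 and 66.9 and 65.7 CPM in SW780, where the interval held 1 (0.922 to 1.05). POLD3, an accessory subunit of polymerase delta, had log2 ratios of 0.32 and 0.19.

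POLA2, the other large subunit of polymerase alpha, has 2 entries of that name in the tables. The long-standing entry, ENSG00000014138, had log2 ratios of 0.15 in UMUC3 and 0.08 in SW780 and is the one counted among the 46. The second, ENSG00000285816, lies over the same part of chromosome 11 and had 98 reads in UMUC3 shNT and 526 in shSCD1, a log2 ratio of 1.70, beside 872 and 717 reads in SW780. How reads were divided between the 2 entries and CDC42EP2 is not given in the sources used here, so the POLA2 values are uncertain.

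All 8 genes of the clamp, the clamp loader and the lagging strand were above 0 in UMUC3 (0.17 to 0.94), 2 of them past 1.5-fold, and 7 of 8 in SW780. FEN1 (ENSG00000168496, chromosome 11, 61792637 to 61797244, plus strand), the nuclease that trims the flaps of Okazaki fragments, had 912 reads (40.0 CPM) in UMUC3 shNT and 2519 (77.4 CPM) in shSCD1, a fold of 1.94 (1.79 to 2.09). In SW780 it stood at 163 and 181 CPM, a fold of 1.11 (1.07 to 1.16), so that UMUC3 shSCD1 still had a lower FEN1 CPM than either SW780 library, with the tables of the lines scaled separately. Of its exonic bases, 8.68% also lie in exons of FADS2 or TMEM258, and whether reads were assigned by strand is not given. RFC3, a subunit of the loader that opens the clamp, stood at 60.3 and 99.9 CPM in UMUC3, a fold of 1.66 (1.55 to 1.76), and at 86.5 and 95.9 CPM in SW780. PCNA, the clamp itself, had 204 and 286 CPM in UMUC3, a fold of 1.40 (1.36 to 1.45), and 381 and 403 CPM in SW780. It was the most abundant gene of the set per kilobase in every library, from 150 in UMUC3 shNT to 297 in SW780 shSCD1. RPA2, part of the complex that coats single-stranded DNA, stood at 46.5 and 61.9 CPM in UMUC3 and at 58.8 and 58.2 CPM in SW780. The 4 RFC subunits measured had the most even levels of the complexes compared, the highest being 1.17 to 1.63 times the lowest, depending on the library.

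Deoxynucleotide supply was the role in which UMUC3 ratios were split. RRM2, the S phase subunit of ribonucleotide reductase, had 3555 reads (156 CPM) in UMUC3 shNT and 7974 (245 CPM) in shSCD1, a fold of 1.57 (1.51 to 1.64). Its partner RRM1, which is present through the whole cycle, stood at 262 and 252 CPM, a fold of 0.962 (0.930 to 0.995). TYMS, thymidylate synthase, had 190 and 183 CPM, a fold of 0.960 (0.923 to 0.998). TK1 (ENSG00000167900, chromosome 17, 78174075 to 78187233, minus strand), the thymidine kinase of dividing cells, had 65.6 and 60.1 CPM, a fold of 0.915 (0.855 to 0.980). These 3 were the only genes of the set below 0 in UMUC3, and each difference was under 10%. In SW780 all 4 were above 0. TK1 was the largest there, with 4122 reads (121 CPM) in shNT and 3993 (156 CPM) in shSCD1, a fold of 1.29 (1.24 to 1.35). RRM2 stood at 351 and 384 CPM, TYMS at 253 and 275 CPM and RRM1 at 188 and 192 CPM. Of TYMS's exonic bases 46.6% lie in exons of ENOSF1 or TYMSOS, the largest such share in the set.

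Of the genes of fork protection and checkpoint, CLSPN (ENSG00000092853, chromosome 1, 35720218 to 35769967, minus strand), the claspin adaptor through which ATR activates CHEK1 at stalled forks, had the largest UMUC3 ratio of the 46. It had 621 reads (27.2 CPM) in UMUC3 shNT and 2242 (68.9 CPM) in shSCD1, a fold of 2.53 (2.32 to 2.77). In SW780 it had 3450 reads (101 CPM) and 3137 (123 CPM), a fold of 1.21 (1.16 to 1.27). Both SW780 libraries thus had a higher CLSPN CPM than UMUC3 shSCD1. TIPIN, which with TIMELESS steadies the fork, stood at 35.7 and 46.5 CPM in UMUC3, a fold of 1.30 (1.20 to 1.42), and at 18.5 CPM in both SW780 libraries.

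All 4 genes of replication-coupled chromatin were above 0 in both lines and 3 passed 1.5-fold in UMUC3. CHAF1A and CHAF1B, subunits of the chromatin assembly factor that places histones on new DNA, had near-equal UMUC3 folds. CHAF1A stood at 34.5 and 55.3 CPM there, a fold of 1.60 (1.47 to 1.74), and at 69.7 and 76.8 CPM in SW780. CHAF1B stood at 18.5 and 29.9 CPM in UMUC3, a fold of 1.62 (1.44 to 1.82), and at 41.7 and 50.9 CPM in SW780. UHRF1, which guides maintenance methylation to hemimethylated DNA, had 58.7 and 95.4 CPM in UMUC3, a fold of 1.63 (1.52 to 1.73), and 95.1 and 118 CPM in SW780, a fold of 1.24 (1.18 to 1.31). SLBP, which binds the stem-loop of histone mRNAs, was the member below that size, with 42.8 and 55.2 CPM in UMUC3 and 156 and 168 CPM in SW780.

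Among the E2F factors, E2F1, an activator, had nearly the same ratio in both lines. It stood at 22.0 and 33.2 CPM in UMUC3, a fold of 1.51 (1.35 to 1.68), and at 47.0 and 68.6 CPM in SW780, a fold of 1.46 (1.36 to 1.56). On the log2 scale with 1 CPM added the values were 0.57 and 0.54, both just under the 0.58 that 1.5-fold means there. E2F2 (ENSG00000007968, chromosome 1, 23506430 to 23531220, minus strand), another activator and the least abundant gene of the set per kilobase in all 4 libraries, had 277 reads (12.1 CPM) in UMUC3 shNT and 843 (25.9 CPM) in shSCD1, a fold of 2.13 (1.86 to 2.45). In SW780 it stood at 17.4 and 19.9 CPM. E2F8, a repressor that damps E2F targets late in S phase, had 18.3 and 30.7 CPM in UMUC3, a fold of 1.67 (1.49 to 1.88). In SW780 it had 16.3 and 14.2 CPM, a fold of 0.873 (0.763 to 0.999), while the authors' GFOLD value was 0. DTL, the substrate receptor of the ligase that destroys CDT1 on PCNA, stood at 39.6 and 62.7 CPM in UMUC3, a fold of 1.58 (1.46 to 1.71), and at 65.9 and 78.4 CPM in SW780. EXO1, an exonuclease of mismatch repair and resection, had 23.4 and 37.4 CPM in UMUC3, a fold of 1.59 (1.44 to 1.77), and 49.7 and 56.0 CPM in SW780.

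**Figure D3:**
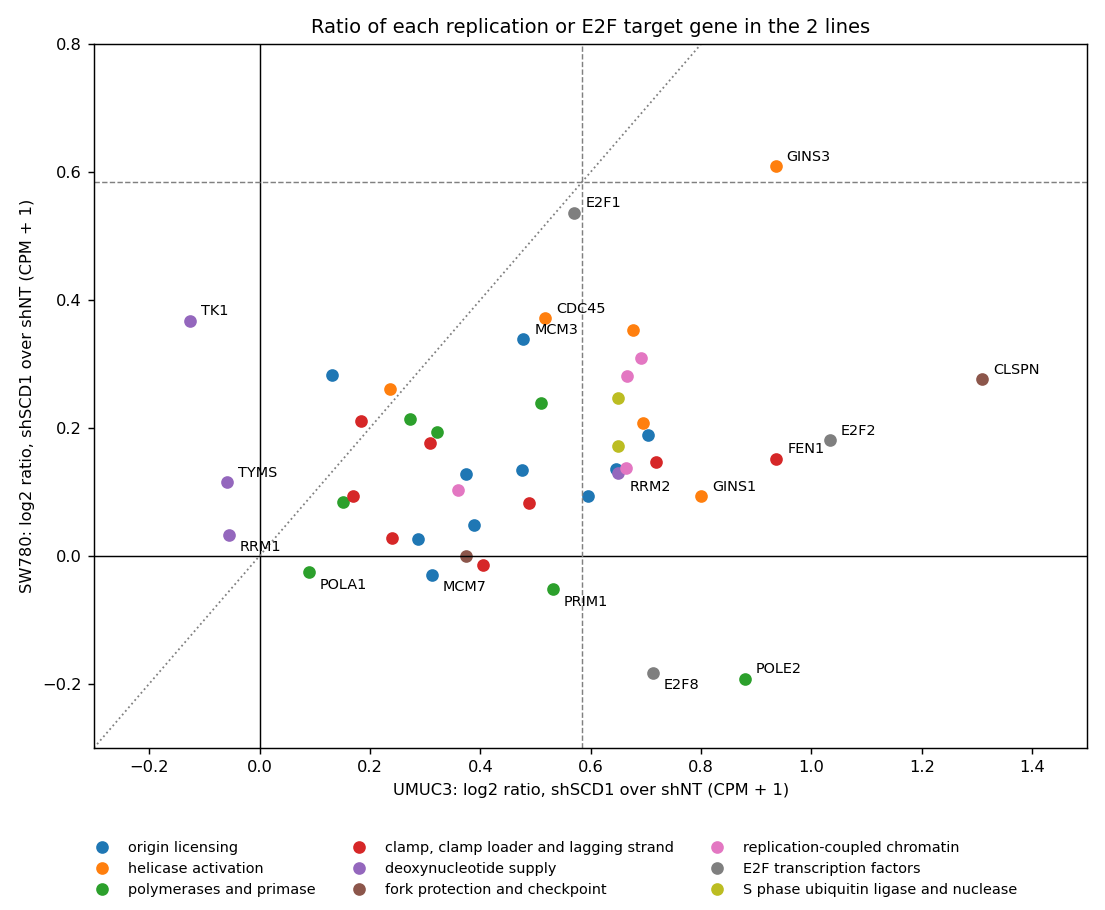
Log2 ratio of shSCD1 over shNT (CPM plus 1) of each of the 46 genes in UMUC3 (horizontal) and SW780 (vertical), coloured by role, with 1.5-fold as dashed lines and equal ratios as a dotted line. GINS3 is the 1 gene past 1.5-fold on both axes. Among genes with counting intervals on opposite sides of 1 in the lines, TK1 and TYMS lie left of 0 and above it. Of the same genes, POLE2 and E2F8 lie right of 0 and below it.

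The 2 comparisons share no library, so their ratios can be set side by side. Of the 46 genes, 37 were above 0 in both lines, 6 in UMUC3 only and 3 in SW780 only, and none was below 0 in both. Among the 11152 genes tested in both lines, 26.0% were above 0 in both. The UMUC3 ratio was the larger for 40 of the 46, with a median difference of 0.34, against 52.3% of all genes and a median difference of 0.02. Which genes had the larger ratios was not much alike in the 2 lines: across the 46 genes, which share libraries and are not independent, Pearson's correlation was 0.15 and Spearman's 0.19, beside 0.03 for both over all genes.

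The lines also differed between their shNT libraries. The UMUC3 shNT library is also the base of every UMUC3 ratio above. A low reading in it would both raise those ratios and lower UMUC3 against SW780, so these results are not independent. With CPM taken over the 15415 genes in both tables, which the authors scaled separately, 35 of the 46 genes (76.1%) were lower in UMUC3 shNT than in SW780 shNT, beside 57.2% of all genes, with a median log2 ratio of −0.51 beside −0.19. At least 1.5-fold lower were 21 of the 46 (45.7%), beside 35.0% of all genes. At 2-fold the set no longer stood out, with 11 of the 46 lower (23.9%), beside 22.8% of all genes. FEN1 was the furthest apart, 41.2 CPM in UMUC3 shNT and 166 CPM in SW780 shNT, followed by CLSPN with 28.1 and 103 CPM and SLBP with 44.1 and 159 CPM. At the other end TIPIN, with 36.8 and 18.9 CPM, PRIM1, with 81.3 and 45.4 CPM, and MCM7, with 334 and 213 CPM, were higher in UMUC3. The UMUC3 shSCD1 library lay around the SW780 shNT level, with a median log2 ratio of 0.02 over the 46 genes, 22 of them below, beside a median of −0.14 and 55.8% below over all genes.

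**Figure D4:**
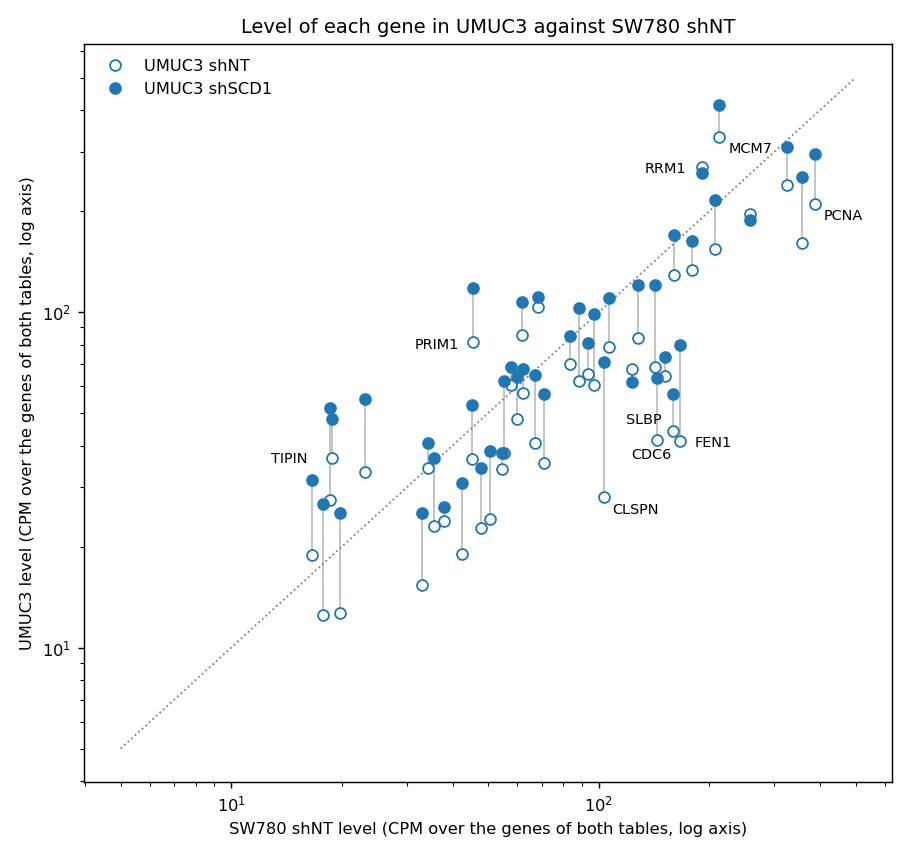
CPM of each of the 46 genes in UMUC3 (vertical, log axis; open shNT, filled shSCD1, joined by a line) against SW780 shNT (horizontal, log axis), over the genes of both tables, 1 library per series. Of the open circles 35 lie below the dotted line of equal level, and of the filled circles 22 do.

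Of 4 related lists measured beside the set, regulators of E2F, RB and the G1/S step came nearest to it in UMUC3. Of 27 tested regulators, 21 were above 0 in UMUC3, with a median of 0.37, 6 past 1.5-fold higher and none lower. Of all tested genes in UMUC3, 10.1% were 1.5-fold higher and 6.86% lower. CCNE2, a cyclin E that E2F induces and that drives CDK2, had 292 reads (12.8 CPM) in UMUC3 shNT and 1280 (39.3 CPM) in shSCD1, a fold of 3.07 (2.70 to 3.50). The CDK2 phosphatase CDC25A stood at 14.9 and 29.7 CPM, CCNE1 at 12.0 and 21.8 CPM and E2F5, a repressor E2F, at 22.5 and 39.6 CPM. In SW780, 17 of 26 were above 0, with a median of 0.06. MYBL2, a target of E2F that later acts on mitotic promoters, was the 1 gene past 1.5-fold higher there, at 132 and 217 CPM. Of all tested genes in SW780, 5.05% were that much higher. CCND1, cyclin D1, had the ratio furthest below 0 of that list in SW780, at 834 and 631 CPM, but stood at 349 and 477 CPM in UMUC3.

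Genes of S phase repair, checkpoint and chromatin lay between the set and all genes. Of 22, 18 were above 0 in UMUC3 (median 0.28, 3 past 1.5-fold) and 16 in SW780 (median 0.10, none past that size). Of all tested genes, 10.1% were 1.5-fold higher in UMUC3 and 5.05% in SW780, so the counts past 1.5-fold do not set this list apart. The helicase BLM stood at 19.8 and 34.6 CPM in UMUC3, the chromatin remodeller HELLS at 80.6 and 136 CPM and BRCA1 at 75.7 and 113 CPM, and the uracil glycosylase UNG had a fold of 1.62 (1.51 to 1.74). Of 29 other replication factors, 20 were above 0 in UMUC3 (median 0.15) and 15 in SW780 (median 0.01). DNA2, a nuclease of Okazaki fragments, was the 1 past 1.5-fold higher in UMUC3, at 68.2 and 108 CPM. The small polymerase subunits POLD4, at 20.8 and 12.0 CPM, and POLE4, at 28.6 and 17.7 CPM, were past 1.5-fold lower. These 2 of 29 were close to the 6.86% of all tested genes that were 1.5-fold lower in UMUC3. The 1 of 29 higher was below the 10.1% of tested genes that were.

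Mitotic genes did not follow the set in UMUC3. There, 14 of 37 mitosis and G2/M genes lay above 0, with a median of −0.09 and none past 1.5-fold in either direction. Of all tested genes in that line, 10.1% were 1.5-fold higher and 6.86% lower. ANLN, a scaffold of the cleavage furrow, stood at 560 and 391 CPM, the centromere histone CENPA at 37.6 and 27.0 CPM and the kinase PLK1 at 86.8 and 65.0 CPM, while the kinase AURKA was at 112 and 149 CPM. CDC20, whose promoter is printed above, stood at 209 and 159 CPM. It was picked for a low UMUC3 ratio, so it is no separate example. In SW780, 35 of the 37 were above 0, with a median of 0.18, above the 0.14 of the 46 genes. The kinesin KIF20A, at 139 and 187 CPM, had the largest ratio of that list in SW780. So by their medians the S phase set and the mitotic list lay on opposite sides of 0 in UMUC3, and both lay above it in SW780. Both lists were chosen with earlier results of these data known, so this contrast is not an independent check either.

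**Figure D5:**
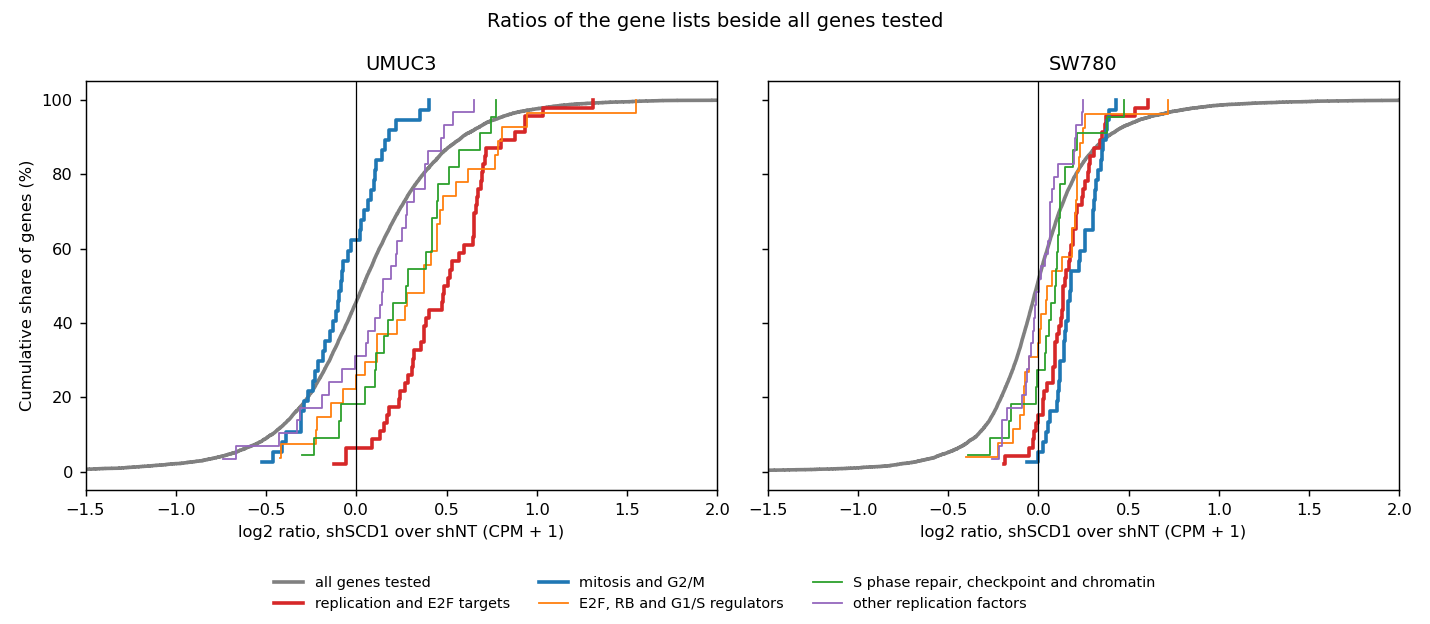
Cumulative share of genes (percent) by log2 ratio of shSCD1 over shNT (CPM plus 1) for the 46 genes, the 4 related lists and all tested genes, UMUC3 on the left and SW780 on the right. In UMUC3 the 46 genes lie to the right of all other curves over most of their range (median 0.50) and mitotic genes to the left of all genes at the median (−0.09), while in SW780 both curves lie to the right of all genes (medians 0.14 and 0.18).

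A fit over all 4 libraries with the line as a block has 1 residual degree of freedom and treats the lines as replicates of the knockdown. By edgeR's quasi-likelihood test with Benjamini-Hochberg adjustment, none of the 13554 genes had an adjusted p under 0.05, while 418 (3.08%) had an unadjusted p under 0.05. Of the 46 genes, 7 had such an unadjusted p (MCM3, CDC45, GINS2, GINS3, CLSPN, UHRF1 and E2F1), all higher in shSCD1, and their lowest adjusted p was 0.986. DESeq2 called 27 genes and none of the 46, of which 5 had an unadjusted p under 0.05, beside 338 of 13291 genes (2.54%).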

How the data were processed

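Total RNA of 4 samples, 1 per group, went through the TruSeq RNA kit and was read on an Illumina NovaSeq, per the labels' protocols. Reads were placed on hg38, according to the submitters' processing notes. Not given in the sources used here: aligner, counter, annotation and use of strand. The authors deposited 1 table per line. Per the file headers each holds a GFOLD value (setting 0.01), a log2 fold change and, under the heading RPKM, 2 columns, 1 per library. Those deposited signal columns are read counts scaled to 50000000 per library with no length in them: up to 20 reads, 100% of values lay within 0.1 of a whole multiple of 1 read, and at least 99.9% of all values did. The deposited log2 and GFOLD values served as alternatives.

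Whole reads were recovered by dividing by the step, and the plan for columns that might have been true RPKM was not needed. Computed here were CPM over all genes of a table and log2 ratios with a pseudocount of 1 CPM over genes that reached 1 CPM in 1 or both libraries. Sizes of 1.5-fold and 2-fold were counted. A count of 0 allows up to 3 reads, or 0.131 and 0.0922 CPM in the UMUC3 pair (shNT, shSCD1) and 0.0880 and 0.117 CPM in the SW780 pair. Because the reads carry no molecular identifiers, intervals and floors reflect counting error alone. Reads per kilobase used the principal transcript's length in GENCODE 29, and overlap with other genes its exons. Motifs were searched in the first listed start of each gene in the RefSeq table (GRCh38.p14). MCM4, MCM5, GINS4, POLD3, RPA2 and E2F8 have no entry in that table. Stretches with over 30 bases in GENCODE exons were not printed, a limit set after the matches were seen.

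The 46 genes and the lists were chosen with earlier results of these data known. Named with values were all genes of roles with at most 4 members, the 4 largest ratios in size in larger roles, and genes below 0 in a line. Of each related list, those named were among the 4 largest ratios per line at a level of 5 CPM or more, apart from CDC20. That gene was named for its printed promoter, which was picked by the lowest UMUC3 ratio among mitotic genes with a CHR match there. One result of these lists is not reported here. CDT1, CDC45 and GINS4 were named after their values were seen. Python 3.11.15 with scipy 1.17.1, R 4.3.3, edgeR 4.0.16 and DESeq2 1.42.0 were used. The ratio and count test steps were tested on simulated data. Other scalings, pseudocounts, filters and deposited ratios were tried.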

Additional observations from a re-analysis of the deposited data

Results flagged for a closer look

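In all, 4 genes of the set had counting intervals on opposite sides of 1 in the lines, with 1 library per group. POLE2 had a log2 ratio of 0.88 in UMUC3 and −0.19 in SW780. E2F8 had 0.71 in UMUC3 and −0.18 in SW780. The authors' GFOLD value in SW780 was 0 for POLE2 and for E2F8, so by that value neither was lower there. TK1 had −0.13 in UMUC3 and 0.37 in SW780, and TYMS had −0.059 and 0.12. The list of mitosis and G2/M genes had medians of −0.085 (UMUC3) and 0.18 (SW780). None of these differences between lines was tested, since neither line has a second library per group.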

How the results depend on the processing

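The labels carry no replicate numbers and each group is 1 library, so the libraries were paired only by cell line, as the block of the edgeR and DESeq2 fits, and no library could be left out. Over 11 alternatives per line, the 19 genes at least 1.5-fold higher in UMUC3 stayed above 0 in each that held them (RRM2 is left out of 1) and no gene of the set changed sign in UMUC3; in SW780, POLA1, PRIM1, RPA2 and TIPIN changed sign in at least 1. The UMUC3 count at 1.5-fold lay between 14 and 20, except 6 by the authors' deposited GFOLD value, which is shrunk towards 0 and by which the median was 0.33 with 38 of 46 above 0 (SW780: 0.060 and 31 of 46). At 2-fold, 1 gene instead of 2 was left in UMUC3 with ratios centred on the median of all genes, with a pseudocount of 5 CPM and by GFOLD. With the pseudocount of 5 CPM and by GFOLD, 0 genes of the set passed 1.5-fold in SW780. The 1 gene past 1.5-fold in both lines became 0 at 2-fold, and edgeR and DESeq2 over both lines also called 0 of the 46 (7 and 5 at an unadjusted p under 0.05). In the 150 bases before the start alone, 37.5% of windows held an E2F match and 0 a CHR match. Removing the median trend over GC content and length (values for 99.8% and 99.5% of tested genes; chosen after seeing the data) gave medians of 0.52 and 0.15. Leaving out the 7 genes with over 20% of exonic bases in other genes (MCM2, GINS4, POLA2, PRIM1, RRM2, TYMS and TIPIN; also chosen after seeing the data) gave medians of 0.52 and 0.17. No scaling moved the median of all genes by over 0.1.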
